A study of Mus musculus with 12 samples.

Results

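Atf4, Atf5, Atf6, Xbp1, Ddit3, Ddit4, Trib3, Asns, Chac1 and Ppp1r15a are genes of ATF4 signalling and of the unfolded protein response. They were chosen by name, and they are 10 of the 14323 gene symbols counted in these mouse T cells. The cells were naïve CD8 T cells from the spleens of 3 wild type mice, sorted as TCRβ+CD8+CD62L+CD44- cells. Each well held 100000 cells, which stayed for 6 h on plastic coated with antibodies at 2.5 µg/ml each. There were 4 conditions with 3 libraries each, 1 library per mouse. Unstimulated wells carried isotype control alone or isotype with anti-LAIR-1 (clone 2C7). The paper describes this antibody as agonistic, one that triggers LAIR-1, an inhibitory collagen receptor. Stimulated wells carried anti-CD3ε (clone 145-2C11), which triggers the T cell receptor complex, together with isotype or with anti-LAIR-1. The labels give neither age, sex nor strain of these mice, while the methods name adult mice of the C57BL/6N strain or background for the study as a whole.

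RNA was sequenced by CEL-seq, which reads messenger RNA near its 3′ end, and the values are counts of reads per gene symbol. Library totals were 2957929, 2304214 and 1781218 counts in unstimulated wells with isotype and 3547294, 3589194 and 3548881 in unstimulated wells with anti-LAIR-1. With anti-CD3 they were 3478294, 4883760 and 6555730 counts next to isotype and 7725545, 6204054 and 4889990 next to anti-LAIR-1. Between 10816 and 11838 symbols had a count in each library. Levels below are in CPM, counts scaled to library size by the TMM method, and 3 counts correspond to between 0.407 and 1.58 CPM. Whether reads of the same molecule were collapsed is not stated, so intervals and limits of detection cover counting error only. Mitochondrial genes took 17.6% to 20.9% of the counts in unstimulated libraries and 11.5% to 13.2% in anti-CD3 libraries. That share moved with anti-CD3, and its part in the differences was not tested. Library totals were also higher with anti-CD3, and after every library was thinned to the smallest total Atf4, Atf6 and Xbp1 passed with anti-CD3 in edgeR next to isotype and next to anti-LAIR-1, while Ddit4 passed in neither and Atf5 and Ddit3 next to isotype alone. A count is a share of its library, and in RNA from whole wells fewer cells of a type and less RNA per cell cannot be told apart.

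As background, several kinases phosphorylate the translation factor eIF2 when amino acids run short or unfolded proteins fill the endoplasmic reticulum (ER). General protein synthesis then slows while ATF4 protein is made, and ATF4 switches on genes for amino acid uptake, amino acid synthesis and tRNA charging. Beside this arm, ATF6 is released from its membrane by proteases and XBP1 messenger RNA is spliced by IRE1. Both factors drive chaperone genes, a machinery that T cells draw on when they grow after activation. Read counts near the 3′ end measure neither the translation of Atf4 nor the splicing of Xbp1.

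The labelled cell type was checked against marker genes. In unstimulated libraries Cd8a averaged 413 CPM with isotype and 421 CPM with anti-LAIR-1, and Cd8b1 606 and 639 CPM. With anti-CD3 the averages were 351 and 388 CPM for Cd8a and 191 and 224 CPM for Cd8b1. The symbols Trac, Trbc1 and Trbc2 are not in the table, and the other 5 CD8 T cell markers were all detected. Markers of CD4 T cells (4 of 4 in the table) summed to at most 4.73 CPM in a library, with Foxp3 first in total counts and Cd4 at 0 in the anti-CD3 isotype libraries. B cell markers (5 of 8 in the table, led by Cd79b) reached 9.46 CPM and myeloid markers (8 of 10, led by Cd74) 16.3 CPM. These traces moved with anti-CD3, as Cd79b fell by 2.29 on the log2 scale next to isotype and by 1.90 next to anti-LAIR-1, and Cd74 rose by 0.88 next to isotype (adjusted p = 2.9e-04, 0.00165 and 0.0486 in edgeR). Next to anti-LAIR-1 Cd74 had -0.27 and did not pass (adjusted p = 0.540 in edgeR). The part of these traces in the results for genes at such levels, Trib3 among them, was not tested. Erythroid markers (2 of 6, led by Alas2) reached 1.19 CPM and neutrophil markers (1 of 5, Elane) 0.526 CPM. The NK cell list (3 of 5) summed to between 23.2 and 49.5 CPM, nearly all of it Eomes, which CD8 T cells also express. Of 10 activation genes, all 10 rose with anti-CD3 with isotype and with anti-LAIR-1 (edgeR), where 35.2% and 36.4% of all genes rose. The summed level of the 10 was 281 to 337 CPM without anti-CD3 and 3526 to 4388 CPM with it.

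The first comparison asks how these genes respond to anti-CD3 alone. In cells with isotype, anti-CD3 raised the transcription factors Atf4, Atf5, Atf6 and Xbp1 and the phosphatase subunit Ppp1r15a, and lowered Ddit3, Ddit4 and Trib3. Atf6 was 8.13-fold higher, a ratio that rests on only 4 to 6 counts in each unstimulated library. Asns and Chac1 were too low over these 6 libraries to pass the filter and were not tested. In edgeR's quasi-likelihood test over 8690 genes, with Benjamini-Hochberg adjusted p under 0.05 as the threshold, 5 of the 8 members tested rose and 3 fell, and 7 of the 8 passed in DESeq2. Of all genes tested, 35.2% rose and 36.1% fell, so that a change with anti-CD3 was common in these cells. Their median log2 fold change was -0.03.

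Atf4 encodes the factor at the centre of the pathway and lies on chromosome 15 from 80255184 to 80257541 on the plus strand (GENCODE M21, GRCm38, the same assembly as mm10). Its level was 123, 132 and 133 CPM in mice 1, 2 and 3 in unstimulated isotype libraries and 386, 365 and 398 CPM with anti-CD3. Every library with anti-CD3 lay above every unstimulated one. The log2 fold change was 1.49 (standard error 0.10, 95% confidence interval 1.29 to 1.69, adjusted p = 2.1e-12 in edgeR), and the increase was seen in 3 of 3 mice. Atf5, a relative of Atf4 whose translation is controlled in a like way, lies on chromosome 7 from 44812256 to 44816658 on the minus strand. It was at 6.30, 8.72 and 3.68 CPM without and 9.83, 13.1 and 15.1 CPM with anti-CD3. These groups do not overlap, although the lowest anti-CD3 library and the highest unstimulated one are near each other. Atf5 rose by 0.93 on the log2 scale (standard error 0.30, adjusted p = 0.00897 in edgeR), again in each mouse. Without anti-CD3 isotype replicate 3 its adjusted p was 0.0501 in edgeR, at a log2 fold change of 0.80, and DESeq2 with a block for the mouse gave 0.0719.

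Atf6 encodes a sensor in the ER membrane and lies on chromosome 1 from 170704674 to 170867771 on the minus strand. Its level was 1.66, 1.59 and 3.15 CPM in unstimulated isotype libraries, from 4 to 6 counts each, and 15.7, 18.9 and 18.0 CPM with anti-CD3. The groups lie far apart, and the unstimulated level is only a few counts per library. On the log2 scale Atf6 rose by 3.02 (95% confidence interval 2.32 to 3.72, adjusted p = 3.0e-08 in edgeR), in the same direction in 3 of 3 mice. Xbp1, the factor of the IRE1 arm, lies on chromosome 11 from 5520659 to 5525893 on the plus strand. Its level was 50.4, 58.7 and 58.9 CPM without and 128, 124 and 124 CPM with anti-CD3. Again no library of one group reached the other. Xbp1 was 2.13-fold higher, or 1.09 on the log2 scale (standard error 0.12), with an adjusted p of 2.0e-08 in edgeR.

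Ddit3, which encodes the stress factor CHOP, went the other way. It lies on chromosome 10 from 127290774 to 127296288 on the plus strand, and its level was 14.6, 16.3 and 12.6 CPM in unstimulated isotype libraries and 7.07, 6.43 and 9.23 CPM with anti-CD3. All libraries with anti-CD3 were below all unstimulated ones. Ddit3 thus had a fold change of -0.99 on the log2 scale (adjusted p = 0.00164 in edgeR), lower in 3 of 3 mice. Trib3, which encodes a pseudokinase that binds ATF4 and CHOP, lies on chromosome 2 from 152337422 to 152344032 on the minus strand. It was measured on 6 to 14 counts per library, at 4.65, 5.15 and 4.21 CPM without and 1.84, 1.29 and 1.30 CPM with anti-CD3. These groups do not overlap either. For Trib3 the fold change was -1.76 on the log2 scale (95% confidence interval -2.70 to -0.83, adjusted p = 0.00129 in edgeR). Pooled over the group, Trib3 had 20 counts with and 35 without anti-CD3, a ratio of 0.302 after scaling (exact 95% counting interval 0.165 to 0.537).

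Ddit4, which encodes the mTORC1 inhibitor REDD1, lies on chromosome 10 from 59949669 to 59951834 on the minus strand. Its level was 16.9, 15.5 and 20.5 CPM in unstimulated isotype libraries and 14.7, 13.5 and 10.4 CPM with anti-CD3. The groups are separate by less than the spread within each. Its log2 fold change of -0.54 (standard error 0.23) passed in edgeR with an adjusted p of 0.0413, lower in 3 of 3 mice. A block for the mouse brought the adjusted p of Ddit4 to 0.0585 in edgeR, and DESeq2 gave 0.0958 without a block. Without unstimulated isotype replicate 1 or 3, or anti-CD3 isotype replicate 2 or 3, the adjusted p of Ddit4 in edgeR was 0.0612, 0.132, 0.0701 and 0.218. Over its 14 alternatives the adjusted p ran from 0.0200 to 0.605 in edgeR or DESeq2, and Ddit4 passed in 5. Its log2 fold change ran from -0.63 to -0.17 over them and was -0.53 with the block in edgeR.

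Ppp1r15a encodes GADD34, which brings a phosphatase to eIF2 and so reverses the kinases, and lies on chromosome 7 from 45522916 to 45526268 on the minus strand. Its level was 39.5, 59.5 and 55.7 CPM in unstimulated isotype libraries and 67.0, 73.1 and 88.4 CPM with anti-CD3. The groups do not overlap. Ppp1r15a rose 1.42-fold, or by 0.51 on the log2 scale (adjusted p = 0.00512 in edgeR), higher in 3 of 3 mice. Without unstimulated isotype replicate 1, the lowest library, the log2 fold change was 0.32 and the adjusted p 0.0666 in edgeR.

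Asns and Chac1, both targets of ATF4, were left out by the filter on low counts. Asns encodes asparagine synthetase and lies on chromosome 6 from 7675169 to 7693254 on the minus strand. Its level was 0.664, 0 and 1.58 CPM in unstimulated isotype libraries and 5.84, 3.00 and 6.31 CPM with anti-CD3. Pooled, this is 5 counts without and 72 with anti-CD3, a ratio of 7.60 (exact 95% counting interval 3.11 to 24.1), and the groups do not overlap. In edgeR without the filter Asns had a log2 fold change of 2.86 (adjusted p = 1.8e-05). Chac1, which encodes an enzyme that breaks down glutathione, lies on chromosome 2 from 119351229 to 119354381 on the plus strand. It had 0 counts in each of the 6 unstimulated libraries, and 2, 6 and 7 counts with anti-CD3 and isotype, or 0.615, 1.29 and 1.13 CPM. Pooled with anti-CD3, the observed level of Chac1 was 2.64 times a floor of 3 counts over the unstimulated group. This ratio leaves out the counting error of the anti-CD3 counts and is no lower limit.

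**Figure D1:**
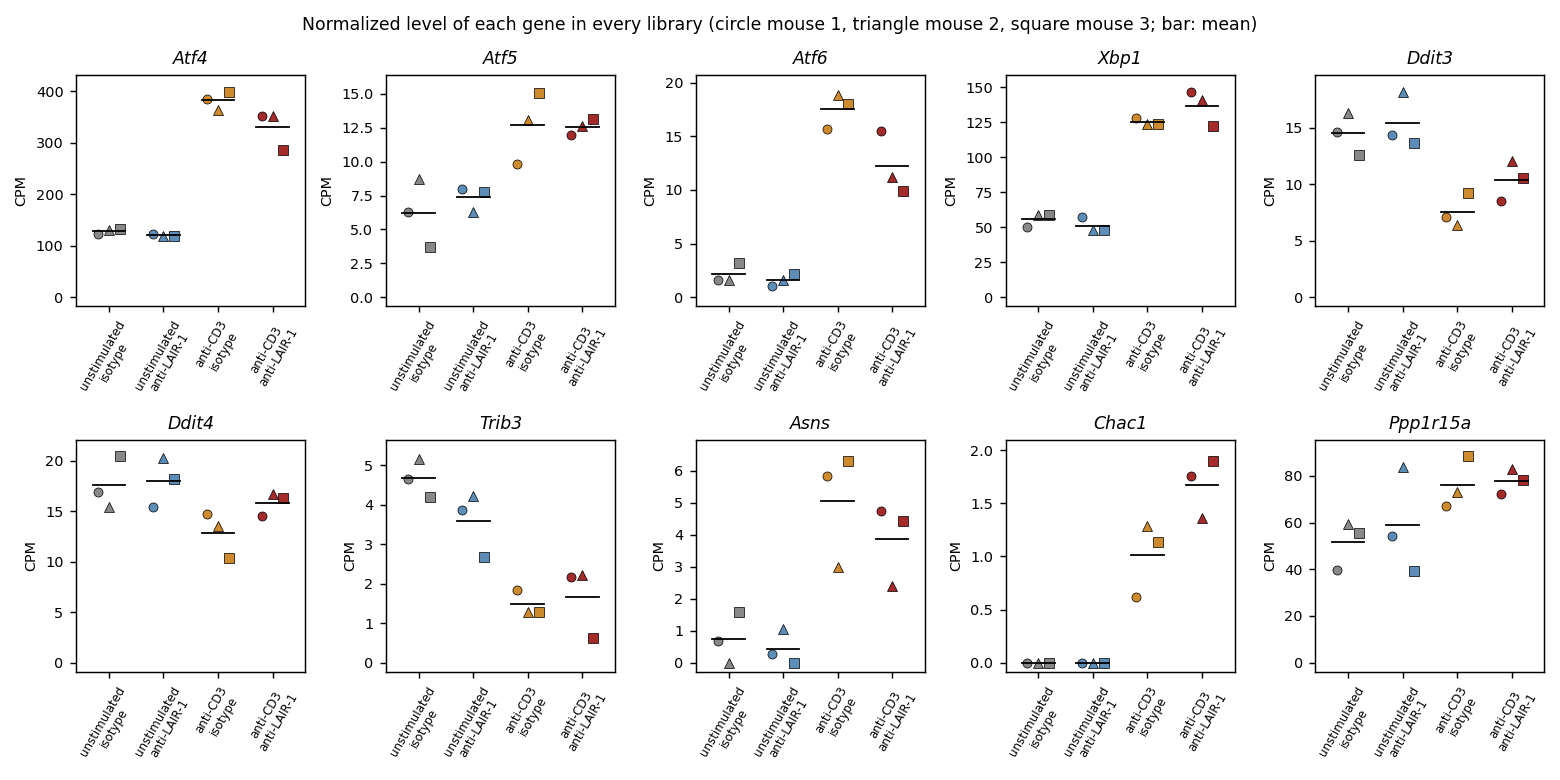
Level of each of the 10 genes in every library, in CPM on axes that include 0, with 1 panel per gene, a marker shape per mouse and a bar for the mean of each condition. Atf4, Atf6 and Xbp1 stand apart with anti-CD3, Ddit3 and Trib3 are lower with it, and Chac1 is at 0 in all 6 unstimulated libraries.

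The same contrast can be read a second time in the libraries with anti-LAIR-1. These share no library with the isotype ones but come from the same 3 mice. Here Atf4, Atf5, Atf6 and Xbp1 rose with anti-CD3, Ddit3 and Trib3 fell, and Ddit4 and Ppp1r15a did not pass. Over 9000 genes tested in edgeR, 4 of 8 members tested rose and 2 fell, where 36.4% of all genes rose and 36.3% fell, and 5 of the 8 passed in DESeq2. Atf4 was at 124, 118 and 119 CPM without and 353, 352 and 287 CPM with anti-CD3. Its groups are far apart, with mouse 3 the lowest of the anti-CD3 libraries. Atf4 rose by 1.44 on the log2 scale (adjusted p = 4.6e-11 in edgeR), beside 1.49 with isotype. Atf6 was at 1.10, 1.58 and 2.14 CPM without and 15.4, 11.2 and 9.94 CPM with anti-CD3, a log2 fold change of 2.90 (adjusted p = 2.6e-07 in edgeR). Xbp1 was at 57.1, 47.9 and 48.2 CPM without and 147, 141 and 122 CPM with anti-CD3, a log2 fold change of 1.41 (adjusted p = 6.7e-10 in edgeR). For both genes the groups do not overlap. Atf5 ranged from 6.32 to 7.99 CPM without and from 11.9 to 13.1 CPM with anti-CD3 and rose by 0.75 on the log2 scale (adjusted p = 0.00502 in edgeR). It did not pass after thinning to the smallest library (adjusted p = 0.0584 in edgeR) or in DESeq2 with a block for the mouse (0.0531).

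Among the genes lower with anti-CD3, Ddit3 was at 14.3, 18.2 and 13.7 CPM in unstimulated anti-LAIR-1 libraries and 8.54, 12.1 and 10.6 CPM with anti-CD3. All anti-CD3 libraries were the lower ones. Its log2 fold change was -0.59 (adjusted p = 0.0170 in edgeR), and without unstimulated anti-LAIR-1 replicate 2 or anti-CD3 anti-LAIR-1 replicate 1 the adjusted p in edgeR was 0.0967 and 0.104. Trib3 was at 3.86, 4.21 and 2.68 CPM without and 2.17, 2.21 and 0.634 CPM with anti-CD3. Its groups do not overlap, but the lowest library rests on 3 counts. Trib3 had a fold change of -1.04 on the log2 scale (standard error 0.44). Its adjusted p was 0.0400 in edgeR and 0.0919 in DESeq2. Without unstimulated anti-LAIR-1 replicate 1 or 2, or anti-CD3 anti-LAIR-1 replicate 2 or 3, the adjusted p of Trib3 in edgeR was 0.111, 0.140, 0.0542 and 0.151. The number of members that fell was 0 to 2 with each library left out in turn. It was 0 without unstimulated anti-LAIR-1 replicate 2, 2 without replicate 3 of that group, and 1 without each other library of this contrast.

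Ddit4 ranged from 15.4 to 20.3 CPM without and from 14.5 to 16.7 CPM with anti-CD3, so that the groups overlap. Its log2 fold change was -0.21 (95% confidence interval -0.58 to 0.16, adjusted p = 0.301 in edgeR). Ppp1r15a was at 54.0, 83.7 and 39.1 CPM in unstimulated anti-LAIR-1 libraries and 72.1, 83.0 and 78.0 CPM with anti-CD3. Mouse 2 was as high without anti-CD3 as with it, and the groups overlap. On the log2 scale Ppp1r15a differed by 0.38 (adjusted p = 0.0596 in edgeR), and by mouse the difference was 0.41, -0.01 and 0.99. With a block for the mouse Ppp1r15a passed at an adjusted p of 0.0203 in edgeR. Without unstimulated anti-LAIR-1 replicate 2 it was 1.6e-04 at a log2 fold change of 0.72, and without anti-CD3 anti-LAIR-1 replicate 1 it was 0.0471 in edgeR. Over the 14 alternatives of Ppp1r15a the log2 fold change ran from 0.15 to 0.72. The adjusted p ran from 1.3e-04 to 0.366 in edgeR or DESeq2, and Ppp1r15a passed in 6. Asns had 5 counts without and 70 with anti-CD3, a ratio of 8.69 (exact 95% counting interval 3.55 to 27.6). Chac1 had 0 and 30 counts, and its observed pooled level with anti-CD3 was 6.20 times the floor of 3 counts, again no lower limit.

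**Figure D2:**
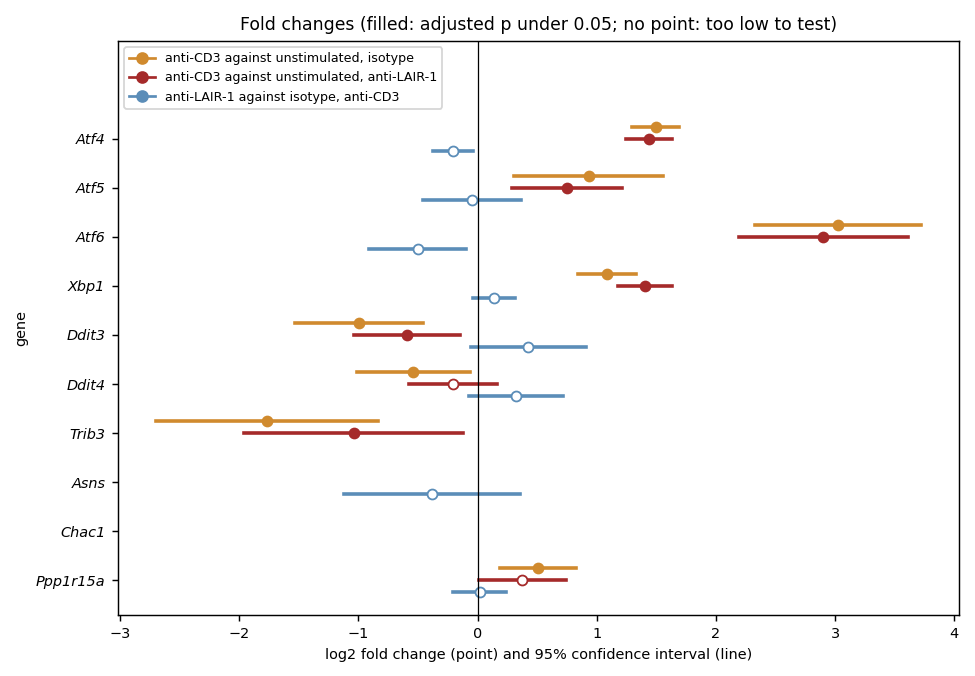
Log2 fold change and 95% confidence interval of each gene tested, for anti-CD3 with isotype, anti-CD3 with anti-LAIR-1, and anti-LAIR-1 with anti-CD3. Filled points passed an adjusted p of 0.05 in edgeR, and genes too low to be tested have no point. Atf6 is farthest to the right at 3.02 and 2.90, and no point of the anti-LAIR-1 comparison is filled.

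Next, anti-LAIR-1 was compared with isotype in cells that also had anti-CD3. In the presence of anti-CD3, 0 of 8 members tested passed in edgeR over 8800 genes, of which 5.76% passed. DESeq2 also called 0, and 2 members, Atf4 and Atf6, had an unadjusted p under 0.05 in edgeR. The levels of these 2 did not overlap between anti-LAIR-1 and isotype, as was the case for 24.4% of all genes tested. Atf6 was at 15.7, 18.9 and 18.0 CPM with isotype and 15.4, 11.2 and 9.94 CPM with anti-LAIR-1. Mouse 1 was nearly level between the antibodies, and mice 2 and 3 were lower with anti-LAIR-1. Atf6 had a difference of -0.50 on the log2 scale (95% confidence interval -0.91 to -0.10, adjusted p = 0.153 in edgeR), with differences of -0.02, -0.73 and -0.82 in the 3 mice. Over the 14 alternatives its adjusted p lay between 0.0533 and 0.537 in edgeR or DESeq2. Atf4, which did not pass, averaged 383 ± 17.0 CPM next to isotype and 330 ± 37.9 CPM next to anti-LAIR-1 (SD, n = 3), where mouse 3 was the lowest library.

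The other members had small or uncertain differences with anti-LAIR-1 next to anti-CD3. Xbp1 averaged 125 ± 2.44 CPM next to isotype and 137 ± 12.6 CPM next to anti-LAIR-1 (SD, n = 3), a log2 difference of 0.14 with an interval of -0.04 to 0.32. Ddit3 averaged 7.58 ± 1.47 and 10.4 ± 1.77 CPM, a log2 difference of 0.43 (interval -0.06 to 0.91). Ddit4 averaged 12.9 ± 2.26 and 15.8 ± 1.16 CPM, a log2 difference of 0.32 (interval -0.07 to 0.72). For these 3 genes the libraries of both antibodies overlap, and their intervals include 0. Atf5 had a log2 fold change of -0.04 and Ppp1r15a of 0.02, with intervals of -0.45 to 0.37 and -0.21 to 0.24. Asns was tested here, at -0.38 on the log2 scale with a 95% confidence interval of -1.12 to 0.36. Trib3 and Chac1 were too low for the test. Trib3 had 20 counts with isotype and 32 with anti-LAIR-1, a ratio of 1.25 after scaling (exact 95% counting interval 0.695 to 2.31). Chac1 had 1.76, 1.36 and 1.90 CPM with anti-LAIR-1 and 0.615, 1.29 and 1.13 CPM with isotype, and pooled it had 30 and 15 counts, a ratio of 1.57 (interval 0.817 to 3.13). Every anti-LAIR-1 library of Chac1 was above every isotype library, but the counting interval of the ratio includes no difference.

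Without anti-CD3, anti-LAIR-1 was set against isotype in resting cells. In this contrast 0 of 7 members tested passed in edgeR, 0 had an unadjusted p under 0.05 and DESeq2 called 0, where 0% of 8770 genes passed and 384 had an unadjusted p under 0.05. The levels of 0 of 7 members were separate between the antibodies, beside 9.86% of all genes. Log2 fold changes were -0.12 for Atf4, -0.15 for Xbp1, 0.18 for Atf5, 0.06 for Ddit3, 0.02 for Ddit4, 0.19 for Ppp1r15a and -0.40 for Trib3. Atf6, Asns and Chac1 were too low to be tested, with 15 and 18 counts in all for Atf6, 5 and 5 for Asns, and 0 and 0 for Chac1. In edgeR without the filter Atf6 had -0.36 and Asns -0.60 on the log2 scale, with standard errors of 0.72 and 1.28, so that smaller differences in these genes were out of reach.

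Whether anti-LAIR-1 acted differently with and without anti-CD3 was tested as an interaction over all 12 libraries. Of 9 members tested, 0 passed in edgeR and 0 in DESeq2, and 0 had an unadjusted p under 0.05, where 2.07% of 9223 genes passed in edgeR. Xbp1 had the smallest p of them, with an interaction of 0.29 on the log2 scale (standard error 0.16, 95% confidence interval -0.04 to 0.61, adjusted p = 0.496 in edgeR). Atf4 had -0.08 (interval -0.35 to 0.18) and Atf6 -0.16 (interval -1.33 to 1.02). The same term is the difference between both anti-CD3 contrasts above, so Ddit4 and Ppp1r15a, which passed with isotype and not with anti-LAIR-1, were not shown to differ between them. Their interactions were 0.30 (interval -0.27 to 0.88, adjusted p = 0.737 in edgeR) and -0.17 (interval -0.70 to 0.37, adjusted p = 0.873 in edgeR). Ddit3 had 0.37, Trib3 0.69, Asns 0.21 and Atf5 -0.21, with adjusted p between 0.721 and 0.969 in edgeR.

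Ordered by mean level over the 4 conditions, the genes fell into several shapes. Atf4 and Atf6 were highest with anti-CD3 and isotype, next with anti-CD3 and anti-LAIR-1, and lowest in both unstimulated conditions, and only these last neighbours overlap. For Xbp1 the order of the anti-CD3 conditions was the reverse, and they overlap. Atf5 and Asns were higher in the anti-CD3 conditions, Ddit3 and Trib3 in the unstimulated ones, and in these 4 genes both conditions on either side of anti-CD3 overlap. Chac1 was highest with anti-CD3 and anti-LAIR-1, then with anti-CD3 and isotype, with no overlap, and at 0 elsewhere. Ddit4 and Ppp1r15a formed a gradual series in which each condition overlaps the next, Ddit4 downward and Ppp1r15a upward from the unstimulated to the anti-CD3 conditions.

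For the members with a mean of at least 50 counts per library, the genes with the most similar profiles were found by the root mean square distance of log2 CPM over the 12 libraries, each profile centred on its own mean. This is a description over 6399 candidate genes. Nearest to Atf4 were Snhg1 at 0.0704, Srsf7 at 0.0708 and St13 at 0.0861, where the median candidate was at 0.711. Xbp1 was nearest to Lcp1 (0.0934), Ubqln1 (0.104) and Pfn1 (0.108), with a median of 0.629. Ddit4 had Ifi35 (0.121), Anapc11 (0.126) and Rab9 (0.129) as its closest profiles, with a median of 0.522. Ppp1r15a was less closely matched, by Txndc11 (0.180), Usp15 (0.183) and Dera (0.197), with a median of 0.528. None of these 12 genes is another member.

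Other genes that ATF4 is known to drive were followed as a list of 46, of which 42 were in the table. The members are not in this list, although several of them, Asns, Chac1, Ddit3 and Trib3 included, are also known ATF4 targets. Its counts thus leave out the 5 tested members that rose with anti-CD3 and isotype. They also leave out the 3 that fell, Ddit3, Ddit4 and Trib3. Of the 42, 31 were tested with anti-CD3 and isotype, and 29 of them rose and 0 fell. The median log2 fold change was 1.71, where 35.2% of all genes rose and 36.1% fell. The 3 with the smallest adjusted p were Slc7a1, an importer of arginine and lysine, Shmt2, an enzyme of mitochondrial serine use, and Psat1, an enzyme of serine synthesis. Slc7a1 went from 64.7 ± 9.05 to 423 ± 14.1 CPM (SD, n = 3), Shmt2 from 335.6 ± 45.4 to 1592 ± 63.3 CPM and Psat1 from 51.0 ± 13.6 to 364 ± 33.0 CPM. Their log2 fold changes were 2.64, 2.17 and 2.77. The 2 that did not pass were Cebpg at 0.10 and the amino acid transporter Slc38a2 at 0.02, named after their values were seen. In the anti-LAIR-1 libraries 30 of 32 rose with anti-CD3 and 0 fell, with a median of 1.71 again, where 36.4% of all genes rose and 36.3% fell.

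In the presence of anti-CD3, anti-LAIR-1 lowered 3 of 10 activation genes and raised 0 in edgeR. It raised 5 of 6 naïve T cell genes and 3 of 5 CD8 T cell markers and lowered 0 of either. The part of these changes in the other results of this contrast was not tested. Anti-LAIR-1 next to anti-CD3 lowered 3 of 33 ATF4 targets tested and raised 0, with a list median of -0.09, while of all genes 3.90% rose and 1.86% fell. The 3 were Atf3, Slc7a1 and Eprs, the last of which charges tRNA with glutamate and proline. Atf3, a stress-induced factor that is also counted among the relatives of Atf4, averaged 20.4 ± 5.82 CPM next to isotype and 10.4 ± 1.79 CPM next to anti-LAIR-1 (SD, n = 3). It fell by 1.01 on the log2 scale (adjusted p = 0.00862 in edgeR), and without anti-CD3 isotype replicate 3 the adjusted p was 0.0612 in edgeR. Slc7a1 fell by 0.30 (adjusted p = 0.0366 in edgeR) and passed in 7 of 14 alternatives. Without anti-CD3 isotype replicate 1, 2 or 3, or anti-CD3 anti-LAIR-1 replicate 1 or 3, its adjusted p in edgeR was 0.0672, 0.0723, 0.109, 0.0835 and 0.134. Eprs fell by 0.26 (adjusted p = 0.0498 in edgeR) and passed in 5 of 14 alternatives. Without anti-CD3 isotype replicate 1 or 2, or anti-CD3 anti-LAIR-1 replicate 1, 2 or 3, its adjusted p in edgeR was 0.0887, 0.204, 0.138, 0.0783 and 0.124. With each library left out in turn, 1 or 2 targets fell, and it was 1 without anti-CD3 isotype replicate 1 or 2 and without anti-CD3 anti-LAIR-1 replicate 1 or 3. None of the 29 targets tested in unstimulated cells and none of 32 in the interaction passed in edgeR. Of all genes 0% and 2.07% passed there.

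The machinery around eIF2, a list of 18 genes, had 17 tested with anti-CD3 and isotype, of which 13 rose and 3 fell, beside 35.2% and 36.1% of all genes, with a median of 0.84. Eif2s1 and Eif2s2, the alpha and beta subunits of eIF2 itself, rose by 2.13 and 1.89 on the log2 scale, and Eif2b1, a subunit of its exchange factor, by 1.69. The 3 that fell were Ppp1ca (-0.63), the catalytic phosphatase that Ppp1r15a recruits, the adaptor Nck1 (-0.80), and Eif2ak3 (-1.32), which encodes the ER kinase PERK. Eif2ak3 averaged 9.81 ± 4.75 CPM (SD, n = 3) without and 4.23 ± 0.375 CPM with anti-CD3, and without unstimulated isotype replicate 1 its log2 fold change was -0.84 with an adjusted p of 0.0789 in edgeR. Next to anti-LAIR-1, 13 of 18 rose with anti-CD3 and 2 fell, where 36.4% of all genes rose and 36.3% fell, and Nck1 had -0.18 and did not pass (adjusted p = 0.335 in edgeR). Anti-LAIR-1 next to anti-CD3 lowered 1 of 18, Eif2s2, from 668 ± 32.6 to 531 ± 21.1 CPM, a log2 fold change of -0.33 (adjusted p = 0.00653 in edgeR) that passed in 14 of 14 alternatives. Of all genes 1.86% fell in this contrast. In the list 1 gene rose without anti-CD3 isotype replicate 2, and 2 fell without anti-CD3 anti-LAIR-1 replicate 3.

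On the side of ATF6 and XBP1, the list of 42 ER chaperones, folding enzymes and degradation factors had 40 tested with anti-CD3 and isotype, of which 29 rose and 5 fell, beside 35.2% and 36.1% of all genes, with a median of 0.86. The chaperone Hspa5 (BiP) went from 86.9 ± 12.5 to 656 ± 20.8 CPM (SD, n = 3), a log2 fold change of 2.83 (adjusted p = 9.3e-17 in edgeR). The lectin chaperones Canx and Calr rose by 1.58 and 1.54. Edem1, a lectin of ER-associated degradation, fell by 0.94 on the log2 scale, the reductase Dnajc10 fell by 1.19, and the vesicle coat gene Sec24d fell by 2.17. Next to anti-LAIR-1, 31 of 40 rose with anti-CD3 and 5 fell, where 36.4% of all genes rose and 36.3% fell. Anti-LAIR-1 itself changed 0 of 41 of these genes in edgeR in the presence of anti-CD3, where 5.76% of all genes passed, and 0 in every alternative tried, DESeq2 included.

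Of 10 sensors and processing enzymes of the unfolded protein response, 8 were in the table and 5 were tested with anti-CD3 and isotype, of which 2 rose and 2 fell, near the 35.2% and 36.1% of all genes. Atf6b, the paralogue of Atf6, rose by 1.40 on the log2 scale and the protease gene Mbtps2 by 0.85, while the protease gene Mbtps1 fell by 0.92 and Creb3, a membrane-bound factor of the same family, fell by 1.07. Without anti-CD3 isotype replicate 2, Mbtps2 was at 0.66 on the log2 scale (adjusted p = 0.0522 in edgeR), so that 1 gene of the list rose. Traf2, the fifth, had 0.11. The proteases encoded by Mbtps1 and Mbtps2 release ATF6 in turn, and their messenger RNA went in opposite directions. Next to anti-LAIR-1, 3 of 6 rose with anti-CD3 and 2 fell, beside 36.4% and 36.3% of all genes. With anti-LAIR-1 next to anti-CD3, 0 of 6 passed in edgeR, also in every alternative tried, where 5.76% of all genes passed, so that a count this small says little about the list.

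Among 19 relatives of Atf4 and Trib3 (bZIP factors, Tribbles and a few named alike), 13 were tested with anti-CD3 and isotype, and 7 rose and 5 fell, where of all genes 35.2% rose and 36.1% fell, so that the share that fell is near that of all genes. The Tribbles genes split, as Trib1 rose by 3.83 on the log2 scale, from 1.36 ± 0.197 to 20.6 ± 3.33 CPM (SD, n = 3), and Trib2 fell by 3.43, from 130 ± 22.0 to 12.8 ± 0.883 CPM. Trib3 itself fell, as given above. Atf3 rose by 3.58 and Cebpz, a CCAAT-binding protein without a bZIP domain, by 1.31, while Creb1 fell by 1.16 and Nfe2l2, the factor NRF2, fell by 0.99. Next to anti-LAIR-1, 8 of 15 rose with anti-CD3 and 4 fell, beside 36.4% and 36.3% of all genes. Anti-LAIR-1 next to anti-CD3 lowered 2 of 15, Atf3 and Cebpz, where 1.86% of all genes fell. Cebpz fell by 0.33 (adjusted p = 0.0294 in edgeR) and passed in 6 of 14 alternatives. Without anti-CD3 isotype replicate 2 or 3, or anti-CD3 anti-LAIR-1 replicate 1, 2 or 3, its adjusted p in edgeR was 0.0705, 0.102, 0.0577, 0.0895 and 0.0896. The count of the list was 0 without anti-CD3 isotype replicate 3 and 1 without anti-CD3 isotype replicate 2 and without anti-CD3 anti-LAIR-1 replicate 1 or 3.

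Ddit4 restrains the growth kinase mTORC1, and 12 other genes with a link to that restraint were followed beside it. With anti-CD3 and isotype 8 were tested, 0 rose and 4 fell, with a median of -0.75, where of all genes 35.2% rose and 36.1% fell with a median of -0.03. Txnip, which limits glucose uptake, went from 590 ± 42.6 to 53.4 ± 5.24 CPM (SD, n = 3), a log2 fold change of -3.55 (adjusted p = 3.7e-18 in edgeR). Sesn1, which encodes a sestrin, fell by 3.02 and Nprl2, part of an amino acid sensing complex, fell by 1.23. Next to anti-LAIR-1, 0 of 8 rose with anti-CD3 and 5 fell, where 36.4% of all genes rose and 36.3% fell, and Nprl2 had -0.46 and did not pass (adjusted p = 0.0626 in edgeR). With anti-LAIR-1 next to anti-CD3 Txnip averaged 94.4 ± 6.63 CPM and was the only 1 of 8 to change, where 5.76% of all genes passed, with a log2 fold change of 0.83 (adjusted p = 7.0e-05 in edgeR) that passed in 14 of 14 alternatives. Its interaction was 0.71 (adjusted p = 0.00915 in edgeR), and after every library was thinned to the smallest total the interaction had an adjusted p of 0.186 in edgeR. Ddit4 had 0.32 in the same contrast and did not pass.

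**Figure D3:**
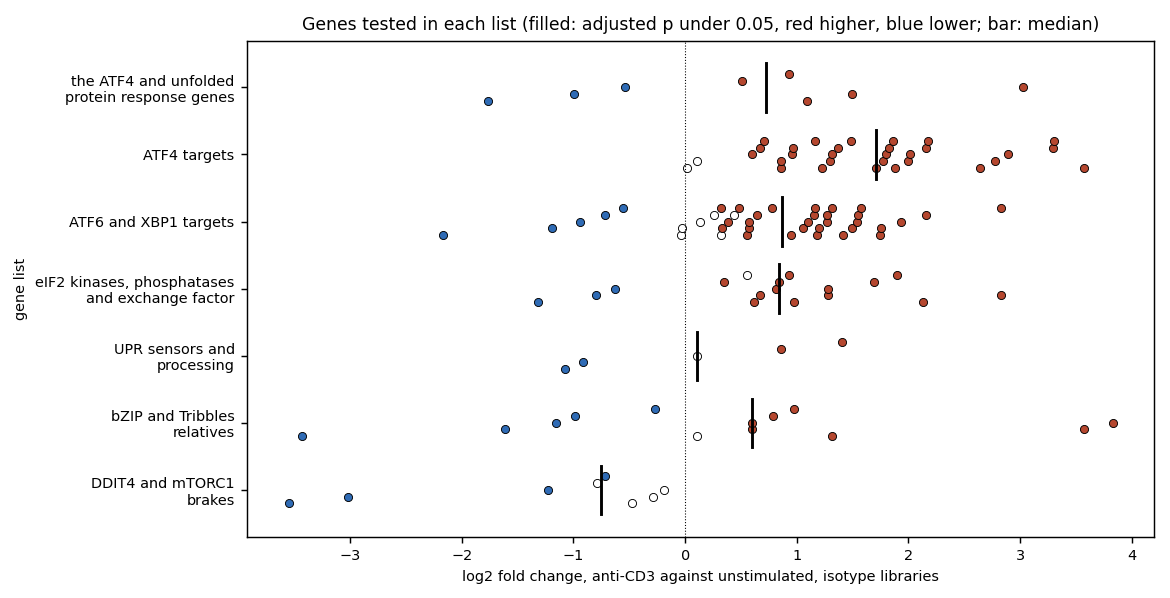
Log2 fold change with anti-CD3 in the isotype libraries for every gene tested in the list of 10 and in 6 pathway lists, with a bar for the median of each list. Red and blue points passed an adjusted p of 0.05 in edgeR in either direction, and open points did not. ATF4 targets outside the list of 10 lie to the right with a median of 1.71. DDIT4 and mTORC1 brakes lie to the left with a median of -0.75.

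Promoter sequences of all members were searched as a description. RefSeq (GRCm38.p6) windows of 300 bases, 250 before and 50 after each start, were found for 9 of the 10 members, 2 of them for Atf5 and none for Atf6. The core of the element bound by ATF4 with its C/EBP partners, TGATGNAA on either strand, was in 3 of these 10 windows and in 1304 of 32851 windows of all genes (3.97%). The matches, in capitals, are shown on the strand of each gene with the bases around them. Trib3 is at chr2:152344031-152344054 on the minus strand, where the capitals are the reverse complement of the core. They lie after the RefSeq start of Trib3 but before its GENCODE start, as the annotations differ there. Asns is at chr6:7693210-7693248 on the minus strand, before its RefSeq start but after its GENCODE start. Chac1 is at chr2:119351033-119351072 on the plus strand, again with the reverse complement.
Trib3: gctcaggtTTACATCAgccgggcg
Asns: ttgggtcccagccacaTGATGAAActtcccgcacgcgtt
Chac1: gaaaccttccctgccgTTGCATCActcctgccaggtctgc
Asns and Chac1 had more counts with anti-CD3 and Trib3 fewer, so that the 3 genes with these letters did not go 1 way. Ddit3, another known ATF4 target, fell with anti-CD3 and isotype and has a window without the core. A match is a description of letters and no measure of binding.

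The list of ATF4 targets leaves out the members, Ddit3 and Trib3 among them. In this list, the core was in 13 of 42 windows (31.0%), which cover 34 of the 46 genes. Of the 13 genes with it, 6 were tested with anti-CD3 and isotype and 6 rose, with a median log2 fold change of 1.94. Of 21 genes with a window but without the core, 16 were tested and 14 rose, with a median of 1.44, where 35.2% of all genes rose. Of the 3 targets that were lower with anti-LAIR-1 next to anti-CD3, Atf3 has the core, and Slc7a1 and Eprs have a window without it. Atf3 is printed for this reason, and Aars, which charges tRNA with alanine, as a target that rose with anti-CD3 by 2.02 on the log2 scale. The Atf3 stretch is chr1:191183420-191183459 on the minus strand and that of Aars chr8:111033714-111033753 on the plus strand, both with the reverse complement of the core in capitals. Another match in the Aars window, in the stretch chr8:111033843-111033866, is not printed.
Atf3: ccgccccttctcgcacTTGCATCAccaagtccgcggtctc
Aars: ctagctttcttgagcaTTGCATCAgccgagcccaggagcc

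The ER stress element read by ATF6 was searched as CCAAT, 9 bases and CCACG on either strand. It was in 39 of 32851 windows (0.119%), in 0 of the 10 member windows, and in 9 of 37 windows of the ER list (24.3%), which cover 35 of its 42 genes. The shorter core TGACGTGG, read by ATF6 and XBP1, was in 222 of all windows (0.676%), in 0 member windows and in 1 of the 37. Of the 9 ER genes with the longer element 8 were tested with anti-CD3 and isotype, 6 rose and 0 fell, with a median of 1.56. Among the 26 with a window but without it 25 were tested, 16 rose and 5 fell, with a median of 0.56, where 35.2% of all genes rose and 36.1% fell. The 3 ER genes with the smallest adjusted p all hold it. Hspa5 is at chr2:34772009-34772059 on the plus strand, Calr at chr8:84847059-84847109 on the minus strand with the reverse complement in capitals, and Canx at chr11:50325784-50325834 on the minus strand.
Hspa5: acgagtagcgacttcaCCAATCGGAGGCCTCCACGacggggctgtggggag
Calr: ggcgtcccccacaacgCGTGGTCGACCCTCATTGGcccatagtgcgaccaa
Canx: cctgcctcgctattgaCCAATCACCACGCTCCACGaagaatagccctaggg

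Exons of 3 members overlap exons of genes on the other strand in the GENCODE annotation. Ddit3 shares 68 exon bases with Mars, all within the last 500 bases of Ddit3 where CEL-seq reads fall, and 13 bases with Gm4189. Mars, an ATF4 target, rose by 0.97 on the log2 scale with anti-CD3 and isotype, while Ddit3 fell by 0.99. Ppp1r15a shares 12 bases with Tulp2 within its last 500, and Atf5 shares 82 bases each with Nup62 and Il4i1, all outside its last 500. Whether the strand was used in counting is not stated. The authors left out reads without a unique best position, and what this did to reads of such bases was not tested.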

How the data were processed

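The deposited values are counts of reads per gene symbol in 12 libraries of naïve CD8 T cells, 3 per condition, 1 per mouse. The authors made the counts by CEL-seq, BWA MEM alignment to mm10 transcripts and the MapAndGo script, without normalization, and left out reads without a unique best position. Library totals ranged from 1781218 to 7725545 counts. No library was left out.

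Counts were compared with edgeR 4.0.16 in R 4.3.3 (limma 3.58.1): TMM scaling, filterByExpr and the quasi-likelihood F-test, with p adjusted by Benjamini-Hochberg across every gene tested and called under 0.05. There were 4 comparisons of 2 conditions and their interaction, and some share libraries. Levels are TMM-scaled CPM over all 12 libraries, and log2 CPM used a prior count of 2. Ratios of pooled counts have exact binomial intervals, which assume counts without spread between mice.

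The members and lists were chosen with earlier results of these data known. Genes named in the text are the 10 members, up to 3 genes per list and direction with the smallest adjusted p for anti-CD3 in isotype libraries and for anti-LAIR-1 in anti-CD3 libraries, and the 3 profiles nearest to each member. Other names were chosen after their values were seen. Lists were counted, not tested.

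Cells were sorted per mouse and plated into all conditions, so libraries of the same mouse are paired. Across genes, deviations from the group mean had an average r of 0.0263, 0.0335, 0.0674 and 0.0892 for libraries of the same mouse in the 4 comparisons, where genes are not independent replicates, and the reported fits have no block.

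The alternatives were DESeq2 1.42.0 size factors in edgeR, library totals alone, DESeq2's Wald test, the mouse number as a block, no filter on low counts, all 12 libraries in 1 fit, every library thinned to the smallest total, and each library left out in turn. DESeq2 with the block was chosen after seeing the data. Motifs were searched on both strands of RefSeq promoter windows. A planned comparison of protein sequences was not made, as no protein table was at hand.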

Additional observations from a re-analysis of the deposited data

How the results depend on the processing

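Atf4, Atf6 and Xbp1 passed with anti-CD3 in 14 of 14 alternatives next to isotype and next to anti-LAIR-1, and with isotype Ddit3 passed in 14 of 14 and Trib3 in 13 of 13. Next to anti-LAIR-1 Ddit3 passed in 10 of 14, with an adjusted p of up to 0.132 in edgeR, and Trib3 in 6 of 13, with up to 0.151. Atf5 passed in 12 of 14 in each. No alternative called a member in either anti-LAIR-1 comparison or in the interaction. The block on the mouse number in edgeR changed the calls of Ddit4 with isotype and Ppp1r15a with anti-LAIR-1 and no other call of a member. Thinned to the smallest library, 1 member fell with anti-CD3 and isotype, and 3 passed and 0 fell with anti-CD3 and anti-LAIR-1, where libraries hold fewer counts. In that last contrast 1 member fell in DESeq2, 0 in DESeq2 with the block, 1 without the filter, where 7 rose, and 0 to 2 with each library left out.

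Several differences that did not pass changed sign, and the cause was not tested. Thinning gave -0.15 for Ddit4 with anti-LAIR-1 next to anti-CD3, -0.26 for Ddit3 without anti-CD3, and -0.35 for the interaction of Ddit4. With each library left out, anti-LAIR-1 next to anti-CD3 ranged from -0.0620 to 0.14 for Ppp1r15a and -0.18 to 0.10 for Atf5. Without anti-CD3 it ranged from -0.0748 to 0.13 for Ddit4, -0.16 to 0.41 for Ppp1r15a, -0.0343 to 0.49 for Atf5 and -0.0810 to 0.15 for Ddit3. The interaction ranged from -0.48 to 0.0926 for Atf6, -0.40 to 0.18 for Ppp1r15a, -0.66 to 1.74 for Asns and -0.14 to 0.000209 for Atf4.

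Over all genes, anti-LAIR-1 next to anti-CD3 gave 507 calls, 732 without the filter, 549 with the block in edgeR, 446 in DESeq2, 306 after thinning, 239 in DESeq2 with the block and 293 to 427 with each library left out. The interaction gave 191, 275 without the filter, 242 in DESeq2, 218 with the block in edgeR, 120 after thinning and 104 to 186 with each library left out. Without anti-CD3 there were 0 calls, 5 without the filter and 1 without unstimulated anti-LAIR-1 replicate 2. Library totals alone moved the median log2 fold change with anti-CD3 by -0.0889 with isotype and -0.111 with anti-LAIR-1, and no member changed direction. With 3 counts at 0.407 to 1.58 CPM, depth limits what can be said of Asns, Chac1, Trib3 and unstimulated Atf6.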
